A study of Mus musculus with 10 samples.

Results

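The genes described are 10 collagen chain genes of mouse skeletal muscle: Col1a1, Col1a2, Col3a1, Col5a1 and Col5a2 of the fibril-forming types I, III and V, Col6a1, Col6a2 and Col6a3 of type VI, Col14a1 of type XIV, and Col15a1 of type XV. They were taken as the listed symbols to which the platform annotation gives a probe set with that symbol alone. Each of the 10 had 1 probe set, and all 10 were among the 11963 genes kept after a filter on low signals, of 19938 genes named in all. RNA came from the gastrocnemius, a calf muscle, of C57BL/6 males, and each of the 10 whole-transcript arrays was hybridised with a pool of 5 animals. F0 EX (1 array) were mice with voluntary exercise and F0 SED (1 array) sedentary mice, both aged 28 weeks. The descendants, aged 8 weeks, formed the groups F1 EX and F1 SED and, a generation later, F2 EX and F2 SED, with 2 pools each, and went back to like-exposed F0 parents. All descendants lived sedentary, so that EX and SED name only the exposure of their ancestors, and F2 came from matings of F1 littermates.

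Collagens are triple-helical proteins of the extracellular matrix, secreted in muscle mainly by fibroblasts of the connective tissue around fibres and fascicles. Type I chains form thick tension-bearing fibrils and type III chains thinner, more compliant ones, while type V chains start the fibrils and limit their diameter. Type VI chains build beaded microfilaments next to the basement membrane of the fibre, and mutations of their genes cause muscular dystrophy in humans. Type XIV is a fibril-associated collagen that lies on the surface of fibrils, and type XV is a proteoglycan that links basement membranes to the fibrils nearby. Types VI and XV are thus neither fibrillar nor fibril-associated in the strict sense, and they are described here because the list holds them.

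Signals are given per probe set on the deposited log2 scale, as are differences unless a fold is named. Signals of different probe sets are not comparable in level, so that only differences between arrays are set beside each other. Muscle fibre markers such as Acta1 and Atp2a1, the actin and calcium pump of fibres, had mean signals of 13.5 and 13.3 in descendants. The arrays of F0 SED and F1 EX pool 1 stood apart, with a median Pearson r of 0.974 and 0.979 with the other 9 arrays across genes, against 0.986 to 0.993 for the other 8. The labels give no scan or hybridisation batch.

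F0 mice were 28 weeks old and descendants 8 weeks, so that generation and age cannot be told apart in the comparison of F0 with descendants. Collagen signals were lower in F0 throughout. Of the 10 genes, 9 fell in F0 and 0 rose (limma on all 10 arrays, Benjamini-Hochberg adjusted p at most 0.05), against 1.54% of all genes that fell and 0.794% that rose. The median difference of the 10 genes was -1.03, against -0.02 over all genes tested. In all 10 genes both F0 arrays lay below all 8 descendant arrays, a pattern held by 6.65% of genes. In bulk muscle RNA, fewer collagen-producing cells and less collagen RNA per cell cannot be told apart.

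The chains of type I collagen, the main component of tendon and perimysium, differed by the most. Col1a1 stood at 9.51 in the F0 EX array and 9.56 in the F0 SED array, against a lowest, median and highest value of 11.6, 11.7 and 12.1 in the 8 descendant arrays. It was 4.84-fold lower in F0 (difference -2.27, SE 0.117, limma adjusted p = 1.47e-06). The F0 arrays were close to each other and more than 2 units below every descendant array. Col1a2, the partner chain in the type I heterotrimer, had 9.74 (F0 EX) and 9.40 (F0 SED), against 11.3, 11.4 and 11.8 (lowest, median and highest) in descendants. Its difference was -1.88 (SE 0.114, limma adjusted p = 4.99e-06), a 3.68-fold lower signal. By the difference, Col1a1 had rank 4 and Col1a2 rank 5 from the lowest of 11963 genes. Col3a1, whose product copolymerises with type I and is abundant in growing tissue, had 8.35 (F0 EX) and 8.49 (F0 SED), against 9.72, 9.89 and 10.1 in descendants. It fell 2.83-fold (difference -1.50, SE 0.119, limma adjusted p = 4.67e-05) and had rank 9 from the lowest.

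Of the type V chains, which nucleate type I fibrils, Col5a2 fell and Col5a1 did not pass. Col5a2 had 5.79 (F0 EX) and 5.93 (F0 SED), against 6.85, 6.98 and 7.18 in descendants, and fell 2.18-fold (difference -1.13, SE 0.115, limma adjusted p = 3.98e-04). Col5a1 had 5.57 (F0 EX) and 6.07 (F0 SED), against 6.13, 6.33 and 6.51 in descendants. Its difference of -0.52 did not pass (95% interval -0.84 to -0.20, SE 0.145, limma adjusted p = 0.0912). The F0 SED array lay just under the lowest descendant array, while F0 EX lay well under it. Without the F0 SED array the difference of Col5a1 was -0.88 and passed (limma adjusted p = 0.0170), and without F0 EX it was -0.17.

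All 3 type VI chains, which assemble into 1 heterotrimer, fell in F0. Col6a3, the longest chain, had 6.86 (F0 EX) and 7.06 (F0 SED), against 7.98, 8.06 and 8.21 in descendants (difference -1.12, SE 0.109, limma adjusted p = 2.82e-04). Col6a2 had 6.69 (F0 EX) and 7.07 (F0 SED), against 7.61, 7.85 and 8.06 in descendants, and differed by -0.95 (SE 0.141, limma adjusted p = 4.79e-03). Col6a1 had 7.10 (F0 EX) and 7.55 (F0 SED), against 7.92, 8.11 and 8.36 in descendants, and differed by -0.81 (SE 0.141, limma adjusted p = 0.0113). In each type VI gene F0 EX was the lowest array and F0 SED the next. Without F0 EX the difference of Col6a1 was -0.48 and no longer passed (limma adjusted p = 0.0525).

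Col14a1, which decorates the fibril surface, had 6.06 (F0 EX) and 6.21 (F0 SED), against 6.45, 6.75 and 6.90 in descendants. Its fall of 1.51-fold was the smallest among those that passed (difference -0.60, SE 0.118, limma adjusted p = 0.0211). It did not pass without F0 EX (-0.46, limma adjusted p = 0.0797), F0 SED (-0.74, 0.0661) or F2 SED pool 2 (-0.58, 0.0508). Col15a1, of the zone between basement membrane and fibrils, had 6.28 (F0 EX) and 6.71 (F0 SED), against 7.07, 7.32 and 7.60 in descendants. It differed by -0.83 (SE 0.162, limma adjusted p = 0.0199), and by -0.53 without F0 EX, where it did not pass (limma adjusted p = 0.104).

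**Figure D1:**
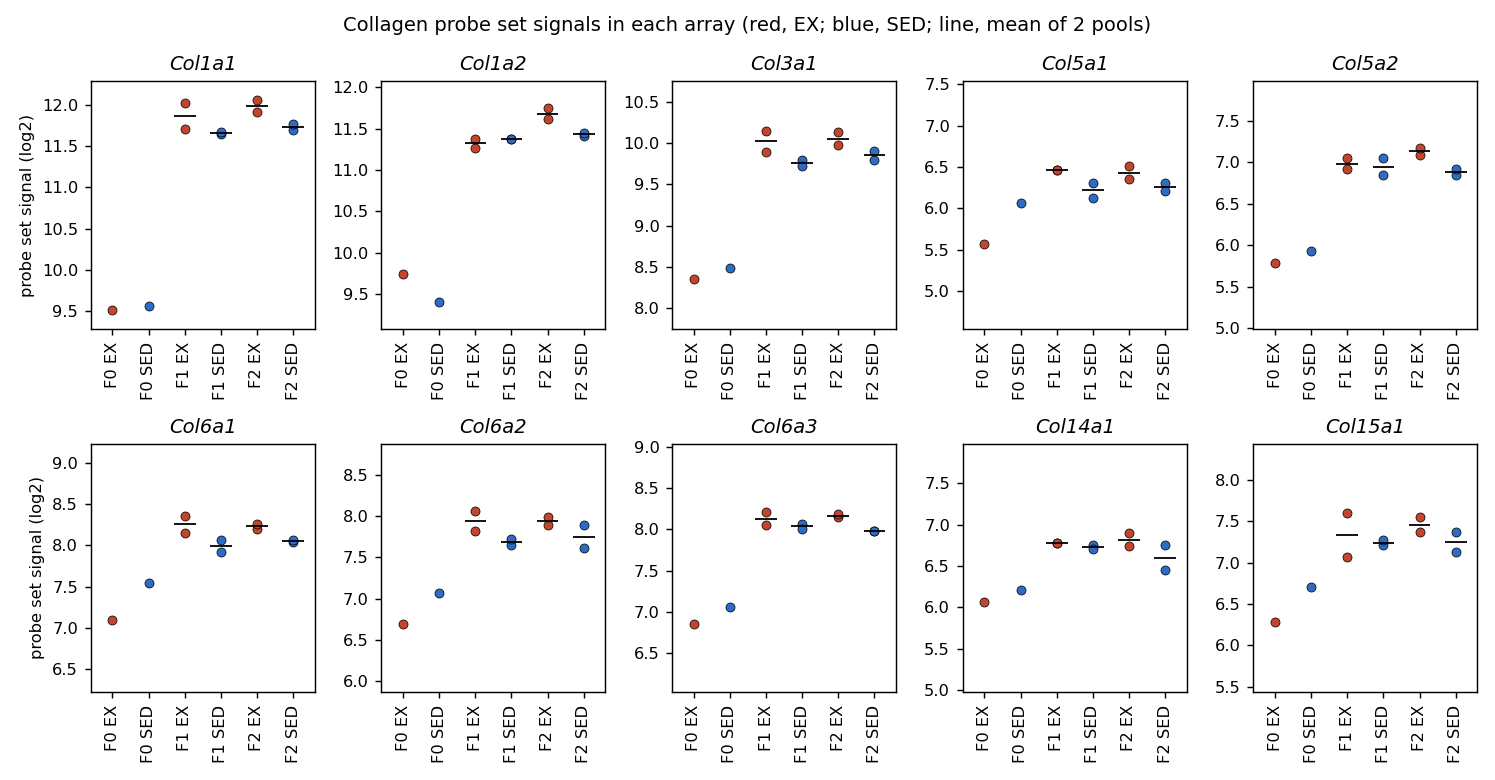
Log2 probe set signal of the 10 collagen genes (vertical axes, each spanning 3 units) in every array of the 6 groups (horizontal axes); points are pools of 5 animals, red for EX and blue for SED, and lines are means of 2 pools. Both F0 arrays lie below all 8 descendant arrays in each panel, by the most for Col1a1 and by the least for Col5a1.

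From the largest to the smallest size, the order of the differences was Col1a1, Col1a2, Col3a1, Col5a2, Col6a3, Col6a2, Col15a1, Col6a1, Col14a1 and Col5a1. The 95% intervals of neighbours in this order overlapped in each case. That of Col1a1, from -2.53 to -2.02, lay apart from those of Col3a1 (-1.76 to -1.24) and of the 7 genes after it. Differences between genes were not tested, since probe sets can respond unequally. Either generation of descendants gave such values. Against F1 the differences ran from -2.23 (Col1a1) to -0.52 (Col5a1), and 8 of 10 genes fell and 0 rose, against 0.936% and 0.368% of all genes. Against F2 they ran from -2.32 to -0.52, and 9 of 10 fell and 0 rose, against 1.38% and 0.602% of all genes. Col15a1 was the gene that passed against F2 (-0.86, limma adjusted p = 0.0298) and not against F1 (-0.79, 0.0565).

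Both ancestries showed the drop when F0 arrays were set against descendants of like ancestry, 1 array against 4. In EX arrays the difference was -2.42 for Col1a1, -1.76 for Col1a2, -1.69 for Col3a1 and -0.88 for Col5a1, and 3 of 10 genes passed as lower, against 0.0502% of all genes, in that smaller fit, which assumes that a lone array varies like the others. In SED arrays the differences of those genes were -2.13, -2.00, -1.31 and -0.17, and 8 of 10 passed as lower, against 13.4% of all genes. All 10 differences were below 0 in either ancestry. With array weights 5 of 10 genes passed as lower over all 10 arrays, against 0.209% of all genes, namely Col1a1, Col1a2, Col3a1, Col5a2 and Col6a3.

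**Figure D2:**
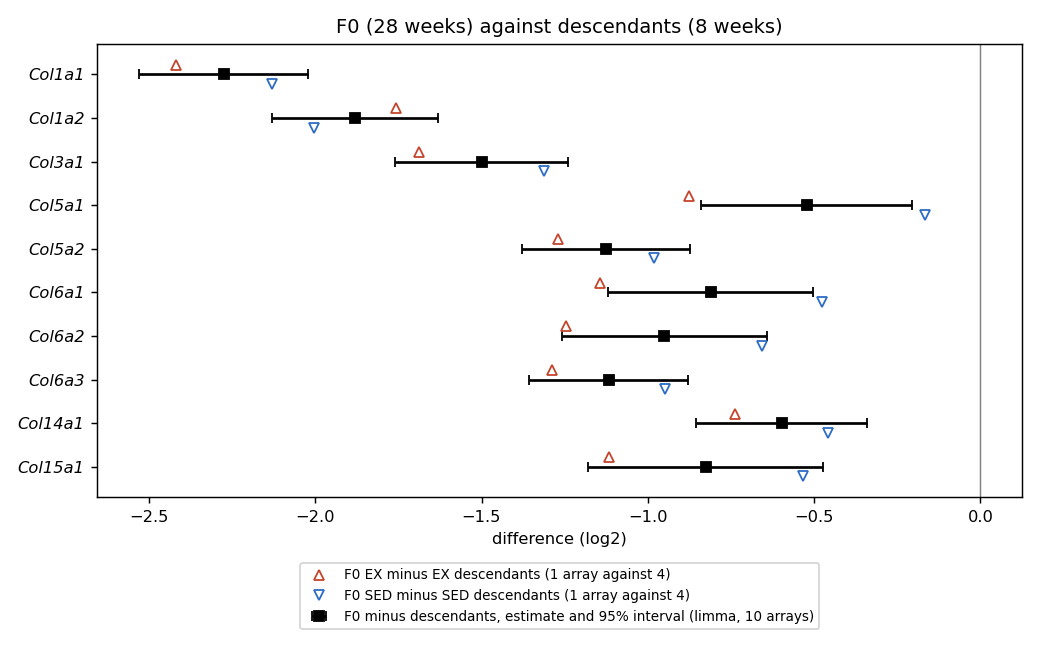
F0 minus descendants for each collagen gene (log2, horizontal axis); squares with bars are limma estimates with 95% intervals over 10 arrays, and open triangles are the differences within EX (red) and within SED arrays (blue), 1 array against 4. The squares run from -2.27 for Col1a1 to -0.52 for Col5a1, and Col1a2 is the gene whose SED triangle lies further from 0 than its EX triangle.

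The upstream sequences of 3 of these genes are printed because Col1a2 and Col3a1 had some of the largest differences and Col5a1 the smallest. RefSeq (GRCm38.p6) gave the 250 bases before the transcription start for 7 of the 10 genes. These windows were searched on both strands for 3 promoter motifs. The first was CCAAT, the site of the factor NF-Y. Another was GGGCGG, the GC box that Sp1 binds. The last was TATAAA, a form of the TATA box. No site of one motif overlapped a site of another in the printed windows. Each sequence runs 5′ to 3′ on the strand of the gene, and capitals mark the motif matches.
Col1a2 (chr6:4505368-4505617, plus strand): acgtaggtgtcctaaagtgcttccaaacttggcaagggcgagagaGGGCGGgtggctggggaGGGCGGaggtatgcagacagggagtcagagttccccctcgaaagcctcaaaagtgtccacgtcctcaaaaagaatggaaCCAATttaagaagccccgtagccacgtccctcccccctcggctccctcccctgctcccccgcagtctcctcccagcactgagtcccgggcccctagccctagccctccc
Col3a1 (chr1:45311288-45311537, plus strand): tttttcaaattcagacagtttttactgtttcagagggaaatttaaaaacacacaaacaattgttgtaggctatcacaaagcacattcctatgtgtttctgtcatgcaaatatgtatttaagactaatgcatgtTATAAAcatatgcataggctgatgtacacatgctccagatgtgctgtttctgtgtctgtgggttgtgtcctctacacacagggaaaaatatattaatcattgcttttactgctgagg
Col5a1 (chr2:27886175-27886424, plus strand): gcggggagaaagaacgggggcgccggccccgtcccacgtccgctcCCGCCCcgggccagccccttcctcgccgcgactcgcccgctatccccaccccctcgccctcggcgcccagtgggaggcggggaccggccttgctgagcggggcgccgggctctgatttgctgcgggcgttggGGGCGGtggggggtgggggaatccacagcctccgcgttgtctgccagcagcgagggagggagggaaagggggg

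The Col1a2 window held CCAAT beginning 109 bases before the start and GGGCGG at 205 and 188 bases. The Col3a1 window was the poorest in G and C (35.2%) and held TATAAA at 117 bases and neither other motif. The Col5a1 window was the richest (76.4%), with GGGCGG at 205 and at 73 bases. Its site at 205 bases is on the opposite strand, so that the reverse complement is printed. CCAAT was found in 1 of the 7 genes, GGGCGG in 3 and TATAAA in 1. The 7 genes had 8 windows, since Col6a2 had 2 starts. By window the counts were 1, 4 and 1 of 8, while 33.8%, 32.7% and 12.4% of all 32851 promoter windows of that length held these motifs. The windows of Col6a1, Col6a3 and Col15a1 held none of the 3 motifs. None of the 3 motifs was found in all 7 genes.

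Collagen genes outside the list fell in F0 in part, over lists chosen with earlier results of these data known. Among 6 other fibrillar collagen genes 3 fell and 0 rose (median difference -0.58): Col11a1, a fibril nucleator of cartilage, by 0.99 on the log2 scale (limma adjusted p = 8.17e-03), Col5a3 by 0.78 (7.37e-03) and Col2a1, the main fibrillar chain of cartilage, by 0.55 (0.0160). Col11a2 had -0.61 and Col27a1 -0.16, neither of which passed. Of 8 other fibril-associated collagen genes 1 fell, Col12a1 of tendon and fascia (-0.98, limma adjusted p = 7.50e-03), and the median was -0.27. Of 9 genes of basement membrane, network and multiplexin collagens 2 fell, the type IV chains Col4a1 (-0.96) and Col4a2 (-0.95), each with a limma adjusted p of 8.03e-03. Col18a1, the other multiplexin beside Col15a1, had a difference of -0.02. None of 8 membrane-bound and remaining collagen genes passed in either direction (median -0.24).

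Some enzymes and chaperones of collagen synthesis fell in F0 as well. Serpinh1, the collagen-specific chaperone Hsp47, fell by 0.87 on the log2 scale (limma adjusted p = 4.14e-03) and Ppib, the cyclophilin of the prolyl 3-hydroxylation complex, by 0.57 (0.0398). They were 2 of 18 genes of folding and hydroxylation, whose median was -0.19. P4hb, protein disulfide isomerase and a subunit of prolyl 4-hydroxylase, had -0.12. Of 11 genes of procollagen processing and cross-linking 6 fell (median -0.59). Sparc, a collagen-binding matricellular protein, stood at 9.18 in both F0 arrays, against a mean of 10.8 in descendants, and fell 3.05-fold (limma adjusted p = 8.00e-06). The cross-linking enzyme Lox differed by -0.98 (limma adjusted p = 8.03e-03), its relative Loxl4 by -0.61 and the procollagen C-proteinase enhancer Pcolce by -0.71.

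Genes of collagen breakdown were also lower in F0 where they passed. Of 9 such genes 2 fell and 0 rose (median -0.45): Ctsk, a collagenolytic cathepsin, by 1.41 on the log2 scale (limma adjusted p = 1.88e-03) and Mmp14, a membrane-bound collagenase, by 0.62 (0.0160). The gelatinase Mmp2 had -0.45 and Timp3, an inhibitor of metalloproteinases, -0.01, and neither passed. None of 8 collagen receptor genes passed (median -0.17), with Ddr2, a receptor tyrosine kinase for fibrillar collagen, at -0.41 and integrin β1 (Itgb1) at -0.35. None of 23 genes of TGF-β signalling and other regulators of collagen genes passed either (median -0.12), among them Ccn2, a target of that pathway, at -0.63 (limma adjusted p = 0.0819) and Smad4 at -0.06.

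Markers of the cells that make collagen moved in part with these genes. Of 13 fibroblast markers 3 fell in F0, Mfap5 (-1.12), Fn1 (-1.10) and Thy1 (-0.59), whereas Dcn had -0.31 and Gsn -0.04 and did not pass. Of the 13 estimates 11 were below 0, with a median of -0.26, against -0.02 over all genes. The linear signals of the 13 markers summed to 5049 (F0 EX) and 3969 (F0 SED), against 4982 to 6005 in descendants. The sum of F0 EX thus lay within the range of descendants. Such sums are set mostly by the probe sets with the highest signals, here Dcn and Gsn (means of 11.1 and 10.6 in descendants). Of 9 tendon cell markers 6 fell, with Kera at -1.09, Tnmd at -1.02 and Fmod at -0.90, and their sum was 1468 (F0 EX) and 1189 (F0 SED), against 2036 to 2831 in descendants. Of 8 endothelial markers 2 fell, Pecam1 (-0.71) and Cdh5 (-0.62), with a sum of 843 (F0 EX) and 693 (F0 SED), against 998 to 1086 in descendants. None of 8 smooth muscle and pericyte, 12 muscle fibre or 8 macrophage markers passed. Of their estimates 5 (median -0.18), 10 (-0.17) and 7 (-0.30) were below 0, as were all 8 endothelial ones (-0.45). Of 7 adipocyte markers 2 were below 0 (median 0.13). A shift below 0 was thus not particular to fibroblast markers. Of 7 keratinocyte markers 4 were kept and 3 of these rose in F0, with 113 (F0 EX) and 232 (F0 SED) as the sum over the 7, against 59.2 to 77.5 in descendants. The part of these cell types in the collagen differences was not tested.

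**Figure D3:**
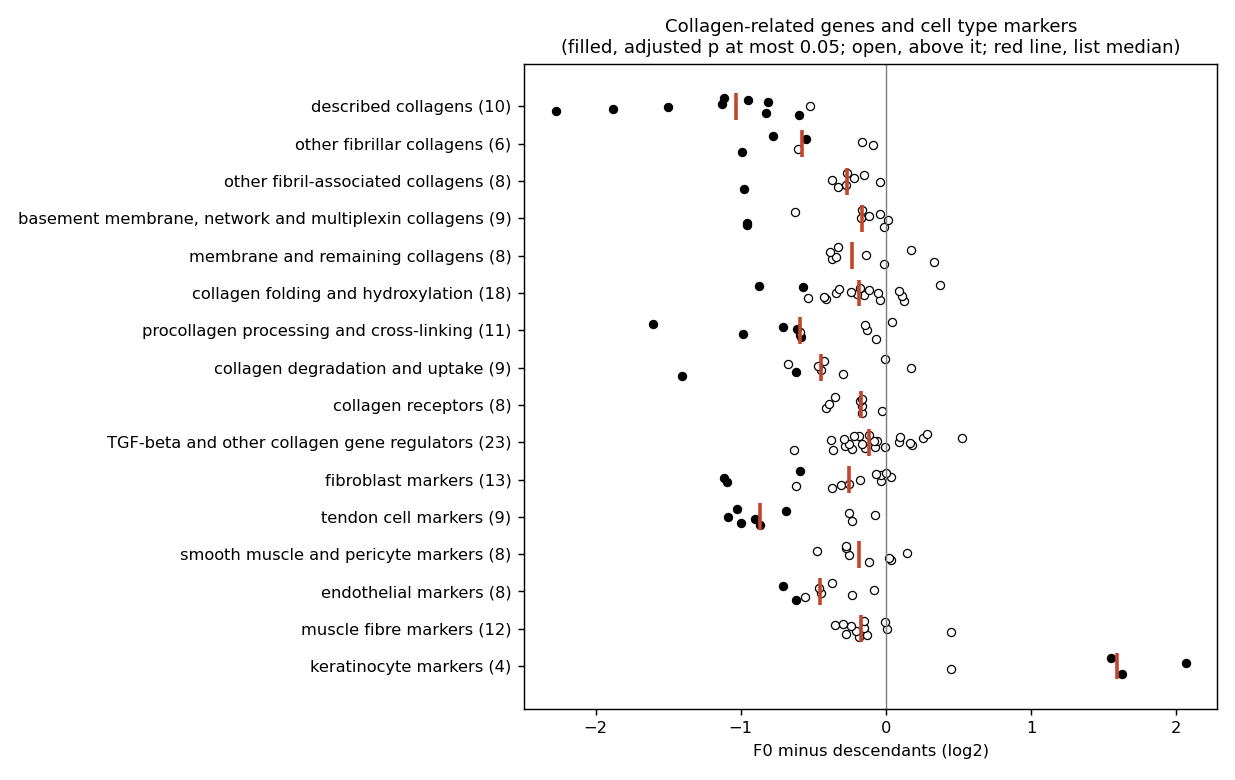
F0 minus descendants (log2, horizontal axis) for single genes of the collagen-related lists and marker lists (rows, number of genes kept in brackets); filled points passed an adjusted p of 0.05, open points did not, and red lines are list medians. The described collagens have a median of -1.03, tendon cell markers -0.86, procollagen processing genes -0.59, regulators -0.12 and keratinocyte markers 1.59. Of the keratinocyte markers, Krt5 and Krtdap passed the signal filter only through F0.

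Within F0 the exercised pool and the sedentary one were compared by size, since 1 array each allows no test. F0 SED was an array that stood apart. Its lower quartile and median over all probe sets were 2.48 and 3.36, against 2.30 and 3.22 in F0 EX. Of the 10 collagen signals 9 were lower in F0 EX, and Col1a2 was higher, with 9.74 in F0 EX and 9.40 in F0 SED. The differences, EX minus SED, ran from -0.50 (Col5a1) to 0.35 (Col1a2), with a median of -0.17, against 0.08 over all genes, and 58% of all genes were above 0. Col5a1 was the gene at or past a size of 0.5, with 0 of 10 higher by that size, against 5.38% of all genes lower and 15.3% higher. Col6a1 differed by -0.45, Col15a1 by -0.43, Col6a2 by -0.37 and Col6a3 by -0.20. Col1a1 differed by -0.06, so that the chains of type I lay on either side of 0. With each array centred on its median, Col1a1 (0.09), Col3a1 (0.0036), Col5a2 (0.0047) and Col14a1 (0.0033) turned to above 0, and Col5a1 had -0.36. With quantile normalization 4 genes were lower by at least 0.5, with Col6a1 at -0.66, Col5a1 at -0.63 and Col6a2 at -0.58.

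In descendants the question was whether exercise of the ancestors left a difference in muscle of sedentary offspring. No collagen gene passed over both generations, with a smallest limma adjusted p of 0.888 among the 10, and 0% of all genes were called in either direction. The estimates were above 0 in all 10 genes, from 0.10 (Col1a2) to 0.23 (Col3a1), against 53.3% of all genes, with a median of 0.18, against 0.01. At an unadjusted p under 0.05 stood 5 of the 10, against 4.99% of all genes. The 10 genes varied together across arrays, so that this is not a count of 10 separate observations.

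Col6a1 had 8.36, 8.15, 8.20 and 8.26 in the EX pools (F1 pools 1 and 2, then F2 pools 1 and 2), against 7.92, 8.06, 8.04 and 8.07 in the SED pools in the same order. Col5a1 had 6.47, 6.46, 6.35 and 6.51 in EX pools, against 6.13, 6.31, 6.31 and 6.21 in SED pools. In these 2 genes all 4 EX pools lay above all 4 SED pools, a pattern held by 1.75% of genes. The difference of Col6a1 was 0.22 with a 95% interval from 0.03 to 0.41, and that of Col5a1 0.21 (0.02 to 0.40). With the F0 pair in the fit these estimates were 0.086 for Col6a1 and 0.066 for Col5a1. Col3a1 had 10.1, 9.89, 9.98 and 10.1 in EX pools, against 9.80, 9.72, 9.80 and 9.90 in SED pools, with 1 SED pool above the lowest EX pool (difference 0.23, interval 0.03 to 0.43). Col1a1 had 11.9 ± 0.16 in EX pools and 11.7 ± 0.05 in SED pools (SD, n = 4 each), a difference of 0.23 (0.02 to 0.44). The upper ends of all 10 intervals reached at most 0.44, a 1.35-fold rise.

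By generation, the F1 estimates ran from -0.05 (Col1a2) to 0.27 (Col6a1), with 9 of 10 above 0, against 48.9% of all genes. Both F1 EX pools lay above both F1 SED pools in 6 of 10 genes, against 13% of all genes. In F2 the estimates ran from 0.17 (Col5a1) to 0.26 (Col5a2), with 10 of 10 above 0, against 60.7% of all genes, and 8 of 10 genes had separate pools with EX above, against 25.8%. No collagen gene passed in F1 (smallest limma adjusted p 0.804) or in F2 (1.00), and at an unadjusted p under 0.05 stood 0 of 10 in either, against 4.88% and 4.45% of all genes. In F1 the pools of EX differed among themselves, and not in collagen genes alone. Of all genes, 15.3% differed by at least 0.5 between these pools, against 2.33% to 2.88% between pools of the other descendant groups. For Col15a1 pool 1 was above pool 2 by 0.54, and the sign of its estimate rested on pool 1 (0.09 with it and -0.18 without it). Single pools moved other estimates too: Col6a1 in F1 was 0.16 without F1 EX pool 1, Col5a1 in F2 was 0.088 without F2 EX pool 2, and Col6a2 in F2 was 0.046 without F2 SED pool 1. Col1a2 had -0.05 in F1 and 0.25 in F2. The difference of its ancestry effects was 0.30 (95% interval -0.09 to 0.68, limma adjusted p = 0.919). For the 10 genes that difference ran from -0.10 to 0.30, and 0 passed, while 4.34% of all genes had an unadjusted p under 0.05.

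**Figure D4:**
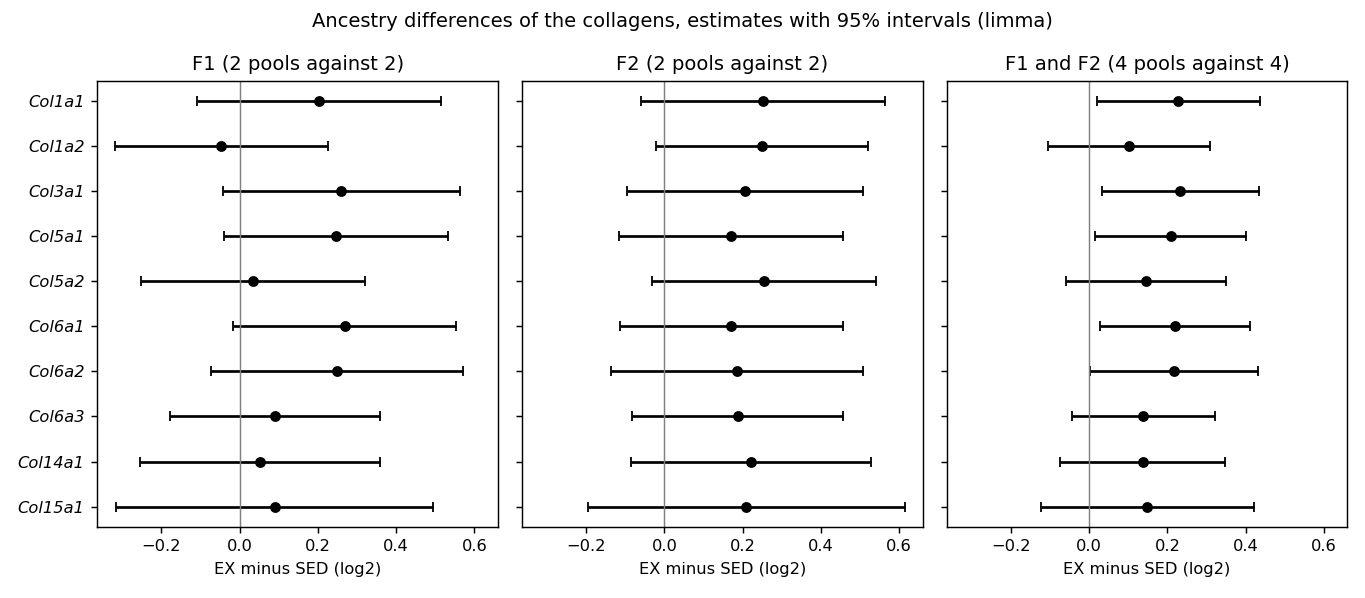
EX minus SED in F1, in F2 and over both generations (log2, horizontal axes) for each collagen gene, as limma estimates with 95% intervals. All estimates except that of Col1a2 in F1 lie above 0, and over both generations 5 intervals lie wholly above 0, although no gene passed after adjustment over 11963 genes.

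Markers of cell types were read beside these ancestry values. The summed linear signal of fibroblast markers was 4982 to 6005 in EX and 5147 to 5914 in SED pools, and that of tendon cell markers 2036 to 2831 in EX and 2110 to 2376 in SED pools. In F2 the estimates of all 9 tendon cell markers were above 0 (median 0.25), and in F1 all 9 were below 0 (median -0.22). The collagen genes had medians of 0.21 in F2 and 0.15 in F1. Adipocyte markers lay the other way, with all 7 estimates below 0 over both generations (median -0.31) and in F1 (median -0.66), and 6 of 7 below 0 in F2 (median -0.16), although 0 passed. The summed signal of the 8 adipocyte markers measured, of which 7 were kept, was 343 to 500 in EX pools and 423 to 601 in SED pools. The lowest descendant sums of fibroblast, tendon cell and adipocyte markers were each in an F1 EX pool. So was that of muscle fibre markers, with 61184 against 69621 to 71695 in SED pools. The lowest sum of endothelial markers, 998, was in an F1 SED pool. F1 estimates rest on 2 EX pools, of which pool 1 stood apart over all genes. The relation of these markers to the collagen values was not tested.

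Between F2 and F1, both 8 weeks old, collagen signals lay close together. The differences, F2 minus F1, ran from -0.05 to 0.21 with a median of 0.04, 8 of 10 were above 0 (51.6% of all genes), and 0 passed, against 0% of all genes, of which 4.25% had an unadjusted p under 0.05. Col1a2 had 11.61, 11.75, 11.41 and 11.45 in the F2 pools (EX pools 1 and 2, then SED), against 11.26, 11.38, 11.37 and 11.37 in the F1 pools. All 4 F2 pools lay above all 4 F1 pools, as in 1.77% of genes, and the difference was 0.21 (95% interval 0.01 to 0.42, unadjusted p = 0.0446, limma adjusted p = 0.911).

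Across the 8 descendant arrays the collagen genes varied together to unequal degrees, given here as Pearson r without a test. All 45 pairs had an r above 0, with a median of 0.64, and 9 pairs lay above 0.8. Col1a1 and Col3a1 were the most alike (r = 0.961), and Col6a1 and Col6a2, both on chromosome 10, had 0.892. Col1a2 was the least like the rest, with a median r of 0.31 with the other 9, and 0.17 with Col15a1. The arrays share ancestry and generation groups and any array-wide effect. By the mean deviation of the 10 genes, the arrays ran from 0.10 (F2 SED pool 1) to 0.41 (F2 EX pool 2) in descendants, and F0 EX had -1.03 and F0 SED -0.82.

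The genes most like this mean profile over all 10 arrays were Antxr2 (r = 0.983), C1qtnf6 (0.979), Sparc (0.979), Hspg2, which encodes perlecan (0.978), and Nid2, a nidogen (0.975). Over 10 arrays this likeness is set mainly by F0 against descendants. Over the 8 descendant arrays alone the most alike were Ext1 (0.971), Cnot8 (0.959), Ldb1 (0.958), Amn1 (0.939) and Yipf4 (0.939). They are the highest r among all other genes kept, over few arrays, and their likeness was not tested. Of these, Ext1 differed between F0 and descendants by -0.32 and Ldb1 by 0.15, and neither passed.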

How the data were processed

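Gene expression was measured on 10 arrays. The signals deposited by the authors are taken as log2, because they span 0.966 to 14.2 across 35557 probe sets. Expression Console of Affymetrix is named in the submitters' processing notes, while for background correction, normalization and build the sources used here name nothing. RNA was pooled before hybridisation, 5 animals per array, per the labels' protocols. The labels do not say that the pools of a group hold different animals, so the spread between pools may be technical. The p-values rest on that spread and not on the spread between animals. In the fits of generation plus ancestry they also rest on departures from adding these effects. F0, with 1 pool per ancestry, has no spread between pools of its own. Precision is limited by how many arrays there are.

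Gene names came from the annotation of the platform in GEO, with 1 symbol for 21789, several for 1621 and none for 12147. For genes with more than 1 probe set, the one with the highest mean was taken. A filter kept genes whose mean reached the 40th percentile (3.23). Fits used limma 3.58.1 in R 4.3.3 over 11963 genes, with Benjamini-Hochberg adjustment: generation plus ancestry for F0 against descendants (10 arrays), F2 against F1 and ancestry over both generations (8 arrays), and 4 groups for ancestry within a generation. The scripts were tested on simulated data. Named are the 10 genes, up to 4 passing genes per direction and 2 others of each list, and 5 genes by likeness. Members and lists were chosen with earlier results of these data known.

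Of 226 entries in 21 lists, 215 were matched to a gene. Loxl2 was matched to Loxl3, itself listed, and was not measured under its own symbol. Scx and Mkx were entered both as regulators and as tendon cell markers. Lists of adipocyte, Schwann, satellite and proliferation markers had 0 members that passed between F0 and descendants. Alternatives were the scaling, the filter, the probe set rule, limma's trend, robust and weight settings, the replicate block and each array left out.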

Additional observations from a re-analysis of the deposited data

Results flagged for a closer look

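In F1, Col1a1 had 12.0 in EX pool 1, and the other 3 pools lay at or below 11.7. The same array was the lowest of F1 for Col1a2, with 11.3, where the next was at 11.4, so that the chains of type I lay at opposite ends of F1 in an array that stood apart over all genes. Col14a1 had 6.45 in F2 SED pool 1, the lowest both of all 8 descendants and of the 4 SED pools, with the next at 6.71. In all 50 sets of arrays were tested for an array that lies away from the others, and 4 were found, where chance gives about 1 in 20.

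The difference EX minus SED is between the animals' own exposures in F0 and between those of their ancestors in descendants. As deposited, it was below 0 in F0 and above 0 in descendants for 9 of the 10 genes, all but Col1a2. The F0 side rests on F0 SED, an array that stood apart over all genes. With each array centred on its median, Col1a1, Col3a1, Col5a2 and Col14a1 were above 0 in F0 too. Of all genes, 58% were above 0 in F0 and 53.3% in descendants, and the share with opposite signs was not counted. In 2 of the 9 genes the descendant pools also did not overlap, a pattern of EX above SED held by 1.75% of all genes. Col5a1 had -0.50 for EX minus SED in F0 and 0.21 in descendants, and Col6a1 had -0.45 in F0 and 0.22 in descendants. For both genes all 4 EX pools lay above all 4 SED pools in descendants, while F0 had 1 pool each, and the difference between these effects was not tested.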

How the results depend on the processing

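Against the 9 collagen genes called lower in F0 (184 genes lower and 95 higher in all), array weights called 5 (25 and 13 in all), EX arrays alone 3 (6 and 3) and SED arrays alone called 1600 genes lower and 655 higher. Without both F0 SED and F1 EX pool 1 there were 90 lower. Leaving out 1 array gave 6 to 9 collagen genes, 51 to 915 genes lower and 35 to 316 higher. Without F0 EX the counts over all genes were the highest and that of the collagen genes, 6, the lowest. Col1a1, Col1a2 and Col3a1 passed under all 20 alternatives. Against F1 (8 collagen genes, 112 lower, 44 higher) array weights gave 5, 12 and 7, median centring 61 lower, and the fit without both arrays 30 lower and 26 higher. Leaving out 1 array gave 5 to 8, 28 to 512 lower and 16 to 171 higher. Against F2 (9, 165 and 72) quantile normalization gave 116 higher, array weights 46 lower and 23 higher, the fit without both arrays 100 lower, and leaving out 1 array 6 to 9, 49 to 1036 lower and 34 to 359 higher. Of the collagens, median centring put 0 and quantile normalization 4 lower by 0.5 in F0 EX than in F0 SED, against 1 as deposited. In F1 ancestry 0 genes were called, but up to 597 lower and 449 higher without EX pool 2, with 0 collagens. For the difference of ancestry effects these were 20 and 123. Between F2 and F1, trend and robust settings called 2 genes higher and array weights 1. The F1 estimate of Col1a2 was 0.022 with quantile normalization, and ranged from -0.11 to 0.012 with 1 array left out. Those of Col5a2 and Col15a1 ranged from -0.065 to 0.13 and from -0.18 to 0.36, and without both arrays Col1a2 had 0.012 and Col15a1 -0.18. With the F0 pair in the fit the ancestry estimates lay between 0.032 (Col15a1) and 0.17 (Col1a1), below those without it except for Col1a2 (0.15), and 0 passed. The cause of these changes was not tested.

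Pools share numbers 1 and 2 in the labels, and their differences correlated between groups by -0.111 to 0.064. These values cannot show whether pools of the same number shared a batch, since a batch need not shift all groups alike. With the replicate block 0 collagen genes passed in any descendant comparison, as without it, and Col3a1 kept 0.23 (limma adjusted p = 0.891).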
